A study of Mus musculus with 6 samples.

Results

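The genes described here encode the fast and slow skeletal isoforms of the troponins and of the myosin light chains. They were chosen by symbol: 5 fast members (Tnnt3, Tnni2, Tnnc2, Myl1 and Mylpf) and 5 slow members (Tnnt1, Tnni1, Tnnc1, Myl3 and Myl2). All 10 had a row among the 16289 genes of the deposited count table, and all 10 were among the 16259 genes tested. RNA-seq counts came from the tibialis anterior, a shin muscle, of wild-type male C57BL/6J mice aged 12 weeks. The muscle was taken 14 days after it was injected with glycerol, which destroys fibres and is followed by regeneration. Both groups carried the glycerol injury: 3 mice also received melatonin, the pineal hormone (glycerol+melatonin), and 3 a control treatment (glycerol). How much melatonin was given, how and when, was not stated in the labels used. The tissue label gives tibialis anterior whereas the extraction protocol mentions a muscle of the back, and the tissue label was followed. No uninjured muscle is among the 6 libraries.

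Troponin is the calcium switch of the thin filament. Its subunit C binds calcium, subunit I holds the filament inhibited and subunit T anchors the complex to tropomyosin. Each myosin head carries an essential and a regulatory light chain, which stiffen its lever arm and tune its speed. Fast and slow fibres use different genes for each of these parts, which makes the genes common markers of fibre type. Mouse tibialis anterior is known as a mostly fast muscle.

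Total counts ran from 39310361 to 48879045 per library, so the spread between mice and not counting error set the precision for all but the lowest values. Values are CPM (the count over the library's total times its TMM scaling factor, in units of 1e6 counts) unless said otherwise. Fibre markers fixed for the check of tissue were abundant in each library (actin Acta1 24030 to 37500 CPM in glycerol+melatonin, 35251 to 41229 CPM in glycerol). No marker of another cell type in the fixed lists passed by edgeR. DESeq2 called the fibro-adipogenic progenitor markers Dcn and Osr1 and the neutrophil marker S100a9, and 5.01% of all genes to which it gave an adjusted p. Of the stroma, the 4 fibro-adipogenic progenitor markers summed to 379 to 440 CPM in glycerol+melatonin and to 557 to 906 CPM in glycerol. The 4 endothelial markers summed to 627 to 1047 CPM in glycerol+melatonin and 711 to 906 CPM in glycerol, the 4 macrophage markers to between 97.04 and 134 CPM and to 114 to 161 CPM, and 2 neutrophil markers to 4.18 to 15.5 CPM and 2.99 to 3.61 CPM. Their part in the results below was not tested. In whole muscle, fewer fibres of a type and less RNA per fibre cannot be told apart. Glycerol replicate 2 stood apart for the slow members, so their differences are given with and without it.

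The fast members were among the abundant transcripts of the muscle. Together they took 5.501%, 5.046% and 4.947% of all counts in the glycerol+melatonin libraries and 4.005%, 4.444% and 4.802% in the glycerol libraries. The slow members together took 0.0200%, 0.0215% and 0.0233% in glycerol+melatonin and 0.0139%, 0.00528% and 0.0144% in glycerol. Between genes, levels were compared per kb of the longest annotated transcript. On that scale the order of the median over the 6 libraries was Tnnt3 (14242 CPM per kb), Mylpf (13093), Tnnc2 (9639), Myl1 (9340) and Tnni2 (6024), followed by Myl3 (81.9 CPM per kb), Tnnt1 (27.7), Tnnc1 (19.6), Myl2 (12.7) and Tnni1 (9.93). The ranges of neighbours in this order overlapped except at 2 steps, from Myl1 to Tnni2 and from Tnni2 to Myl3. The lowest fast value was 5773 CPM per kb and the highest slow value was 107 CPM per kb. The longest transcript of Tnni1 was 2153 bases, against 721 to 1125 bases for the other slow members, which enters its place in this order.

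Troponin C and the essential light chain are the pairs for which RefSeq gives a start site in or next to the annotated gene for both the fast and the slow gene. Their 250 bases before the start are shown because the fast and slow gene of a pair lie on different chromosomes and differ in what precedes them. Capitals mark the motifs searched on both strands, which did not overlap each other. These were the E-box, which reads CANNTG where N is any base, the MCAT element of muscle promoters, which reads CATTCC, the core of the TATA box, written as TATAAA, the MEF2 box and the CArG box. The windows are on GRCm38.p6, from RefSeq, written 5′ to 3′ on the gene's strand: Tnnc1 at chr14:31208062-31208311 (plus), Tnnc2 at chr2:164779735-164779984 (minus), Myl3 at chr9:110763428-110763677 (plus) and Myl1 at chr1:66945057-66945306 (minus).
Tnnc1: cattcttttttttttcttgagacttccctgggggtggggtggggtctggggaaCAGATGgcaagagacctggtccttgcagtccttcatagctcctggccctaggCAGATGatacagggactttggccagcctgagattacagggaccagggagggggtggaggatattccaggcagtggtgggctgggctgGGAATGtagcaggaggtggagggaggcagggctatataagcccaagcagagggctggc
Tnnc2: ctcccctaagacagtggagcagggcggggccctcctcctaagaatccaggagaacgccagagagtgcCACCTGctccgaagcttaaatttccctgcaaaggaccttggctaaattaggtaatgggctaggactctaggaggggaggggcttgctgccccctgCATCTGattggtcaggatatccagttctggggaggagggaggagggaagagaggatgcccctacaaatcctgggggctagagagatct
Myl3: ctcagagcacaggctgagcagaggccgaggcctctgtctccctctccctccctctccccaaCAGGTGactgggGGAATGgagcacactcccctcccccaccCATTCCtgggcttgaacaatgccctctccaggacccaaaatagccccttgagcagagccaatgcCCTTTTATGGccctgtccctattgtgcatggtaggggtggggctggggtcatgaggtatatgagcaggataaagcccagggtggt
Myl1: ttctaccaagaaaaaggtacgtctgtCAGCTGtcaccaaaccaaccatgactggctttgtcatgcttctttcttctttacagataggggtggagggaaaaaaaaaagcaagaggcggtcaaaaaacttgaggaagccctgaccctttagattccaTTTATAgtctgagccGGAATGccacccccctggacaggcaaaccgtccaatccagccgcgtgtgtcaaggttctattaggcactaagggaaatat

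RefSeq windows were found for 8 of the 10 members (10 windows), all but Tnnt3 and Tnni2. An E-box, the site of the MyoD family of muscle regulators, lay in 10 of the 10, as in 66.2% of all 32851 windows. The MCAT element, the site of TEAD factors, lay before Tnnc1, Myl3 and Myl1 (3 of the 10 windows), against 12.6% of all windows. In Tnnc1 it began 58 bases before the start, in Myl1 80 bases and in Myl3 177 and 149 bases. TATAAA on either strand lay before Myl1, Myl2 and Tnnt1 (3 of the 10 windows), against 12.4% of all windows. A CArG box, the site of serum response factor, lay before Myl3 alone among these genes, 85 bases from the start, and in 1.47% of all windows. No window of a member held a MEF2 box (2.92% of all windows). For Myl2 both RefSeq starts lie 7762 and 8227 bases ahead of the first base of the gene in GENCODE M21, so its windows are not printed. The Tnnc1 start is the first base of its gene. The other starts lie inside the annotated gene, past its first base. The Myl3 start is the furthest in, at 110763678 in a gene from 110741861 to 110769798, so its printed window also lies inside the gene.

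On the TMM scale the fast members differed little between groups. Their share of all counts, which takes no such scaling, was higher in every glycerol+melatonin library than in any glycerol library. With library size alone as scale their median log2 fold change was 0.364, beside 0.229 over all genes. Tnnt3, the fast troponin T, had 17745, 11753 and 12507 CPM in glycerol+melatonin, against 17202, 17721 and 13532 CPM in glycerol. Tnni2, the fast inhibitory subunit, had 7023, 5343 and 5543 CPM, against 5167, 5439 and 5336 CPM in glycerol. Glycerol+melatonin replicate 1 was the highest library for both, and the groups overlapped. Tnnc2, the fast calcium-binding subunit, had 8381, 6853 and 6666 CPM in glycerol+melatonin, against 5879, 6829 and 6450 CPM in glycerol. Myl1, the fast essential light chain, had 11158, 9665 and 10060 CPM in glycerol+melatonin, against 9411, 10740 and 10153 CPM in glycerol. Mylpf, the fast regulatory light chain, had 12568, 11035 and 8596 CPM in glycerol+melatonin, against 8425, 9291 and 10768 CPM in glycerol. Glycerol+melatonin replicate 1 was again the highest for these 3 genes, and the groups overlapped for each. From the lowest to the highest library the fast members varied 1.19-fold (Myl1) to 1.51-fold (Tnnt3).

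The slow members varied more, and along a shared pattern. Tnnt1, the slow troponin T, had 34.4, 31.1 and 36.0 CPM in glycerol+melatonin, against 27.7, 9.14 and 27.0 CPM in glycerol. Tnni1, the slow inhibitory subunit, had 26.5, 27.9 and 23.6 CPM, against 17.8, 9.21 and 19.2 CPM in glycerol. In both genes every glycerol+melatonin library lay above every glycerol library. Myl3, the slow and ventricular essential light chain, had 117, 105 and 120 CPM in glycerol+melatonin, against 79.1, 36.6 and 73.2 CPM in glycerol, again with no overlap. Tnnc1, the slow and cardiac calcium-binding subunit, had 14.7, 14.9 and 13.6 CPM in glycerol+melatonin, against 15.2, 2.79 and 10.7 CPM in glycerol. Myl2, the slow and ventricular regulatory light chain, had 14.4, 11.6 and 11.1 CPM in glycerol+melatonin, against 19.9, 1.64 and 8.70 CPM in glycerol. For these last 2 genes glycerol replicate 1 was the highest library and the groups overlapped.

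Groups that did not overlap were thus seen for 3 of 5 slow members, all higher in glycerol+melatonin, and for 0 of 5 fast members, while 13.6% of all genes tested were separated in that direction. The 3 genes were the same ones without glycerol replicate 2, where the share among all genes was 16.2%, but then 2 of 5 fast members, Tnni2 and Tnnc2, were separated and higher in glycerol+melatonin as well. Without glycerol+melatonin replicate 3 it was also 2 of 5 fast members (Tnnc2 and Mylpf) beside 3 of 5 slow ones, against 18.7% of all genes. Without glycerol replicate 1 all 5 slow members were separated, against 17.3% of all genes.

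**Figure D1:**
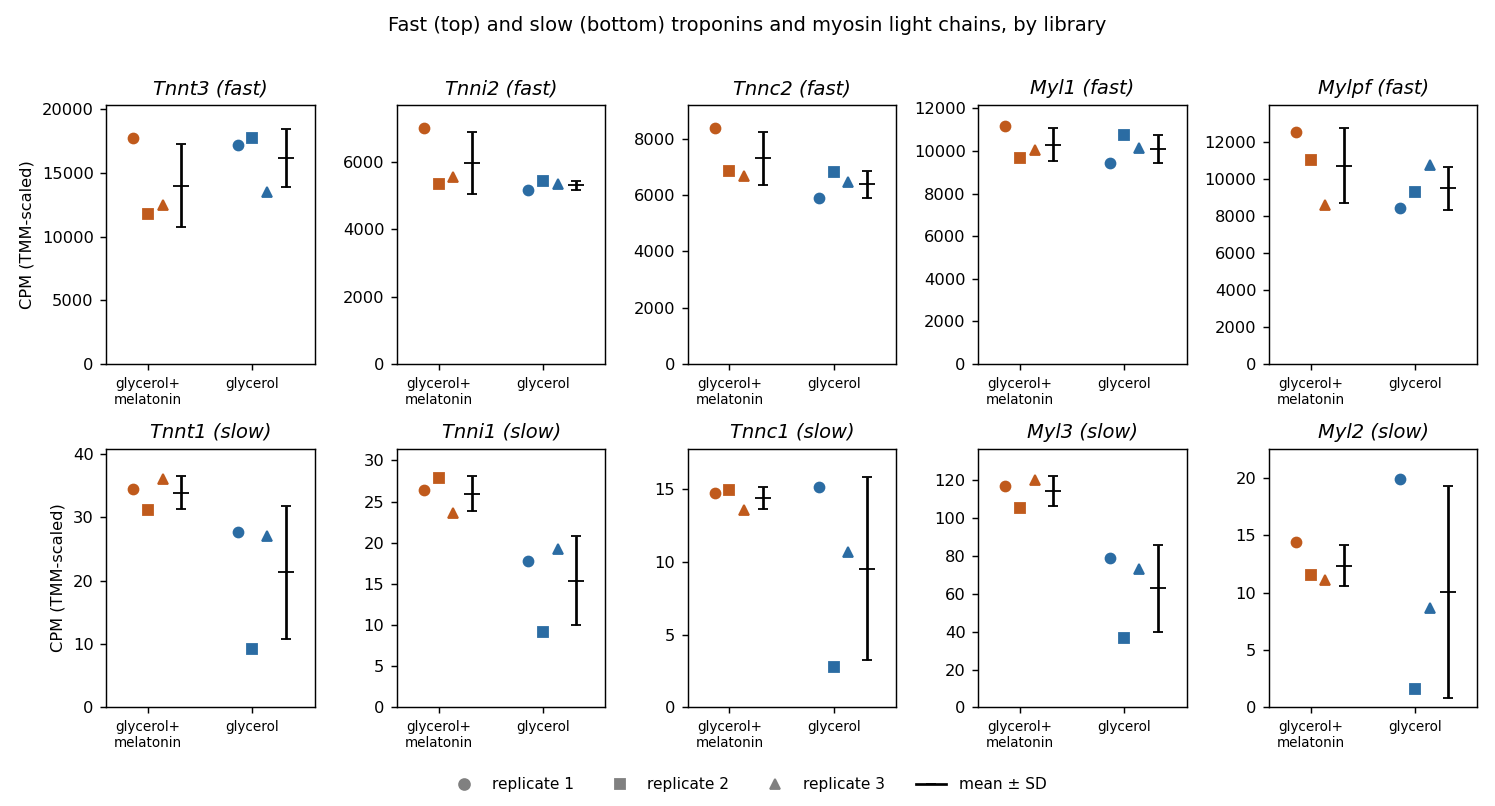
CPM of the 5 fast members (top row) and the 5 slow members (bottom row) in each library, with glycerol+melatonin at the left (orange) and glycerol at the right (blue) of each panel; marker shapes are replicates, black bars are the mean ± SD (n = 3), and each axis starts at 0. The fast groups overlap, whereas Tnnt1, Tnni1 and Myl3 are separated and glycerol replicate 2 (blue square) is the lowest library of every slow panel.

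No member passed the test. The quasi-likelihood test of edgeR, Benjamini-Hochberg adjusted over all genes, gave 0 of 10 an adjusted p under 0.05, against a background of 0.0738% of genes (12 of 16259; 0.0185% higher and 0.0554% lower in glycerol+melatonin). DESeq2 called 0 of the 10 (5.01% of the genes to which it gave an adjusted p), limma-voom 0 (0.0738% of genes) and limma-voom with sample weights 0 (1.22% of genes). At an unadjusted p under 0.05, edgeR had 2 of the 10, Myl3 and Tnni1, both higher in glycerol+melatonin, against 19.5% of all genes in either direction, 10.1% higher and 9.39% lower.

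Among the slow members, Myl3 averaged 114 ± 8.06 CPM in glycerol+melatonin and 63.0 ± 23.0 CPM in glycerol (SD, n = 3 each), a log2 fold change of 0.86 ± 0.27 (SE; 95% interval 0.24 to 1.48; edgeR adjusted p = 0.179). Tnni1 averaged 26.0 ± 2.18 and 15.4 ± 5.40 CPM, a log2 fold change of 0.75 ± 0.26 (0.15 to 1.36; edgeR adjusted p = 0.194). Tnnt1 averaged 33.8 ± 2.54 CPM in glycerol+melatonin and 21.3 ± 10.5 CPM in glycerol. Its log2 fold change was 0.67 ± 0.36 (-0.16 to 1.498; edgeR adjusted p = 0.340). Tnnc1 was at 0.60 ± 0.48 on the same scale (-0.51 to 1.70) and Myl2 at 0.29 ± 0.66 (-1.22 to 1.80), with edgeR adjusted p of 0.509 and 0.836. The median of the 5 slow log2 fold changes was 0.67, beside 0.016 over all genes tested, and 5 of 5 were above 0, beside 51.7% of all genes. Without glycerol replicate 2 the log2 fold changes were 0.58 for Myl3, 0.49 for Tnni1, 0.31 for Tnnt1, 0.16 for Tnnc1 and -0.21 for Myl2. Without glycerol replicate 1 they were 1.06, 0.87, 0.91, 1.10 and 1.26 in the same order of genes.

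The fast log2 fold changes lay between -0.21 and 0.19. Tnnt3 was at -0.21 ± 0.28 (SE; 95% interval -0.84 to 0.43), Tnni2 at 0.17 ± 0.22 (-0.34 to 0.67), Tnnc2 at 0.19 ± 0.22 (-0.32 to 0.71), Myl1 at 0.03 ± 0.23 (-0.49 to 0.55) and Mylpf at 0.18 ± 0.26 (-0.41 to 0.76). Their edgeR adjusted p ran from 0.657 to 0.959. Changes inside these intervals are compatible with the data of 3 mice a group, so small changes are not excluded. The members are short transcripts, and correction for transcript length put all 5 fast members below 0 (median -0.12), while the slow median was 0.42, with Myl2 at -0.01.

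**Figure D2:**
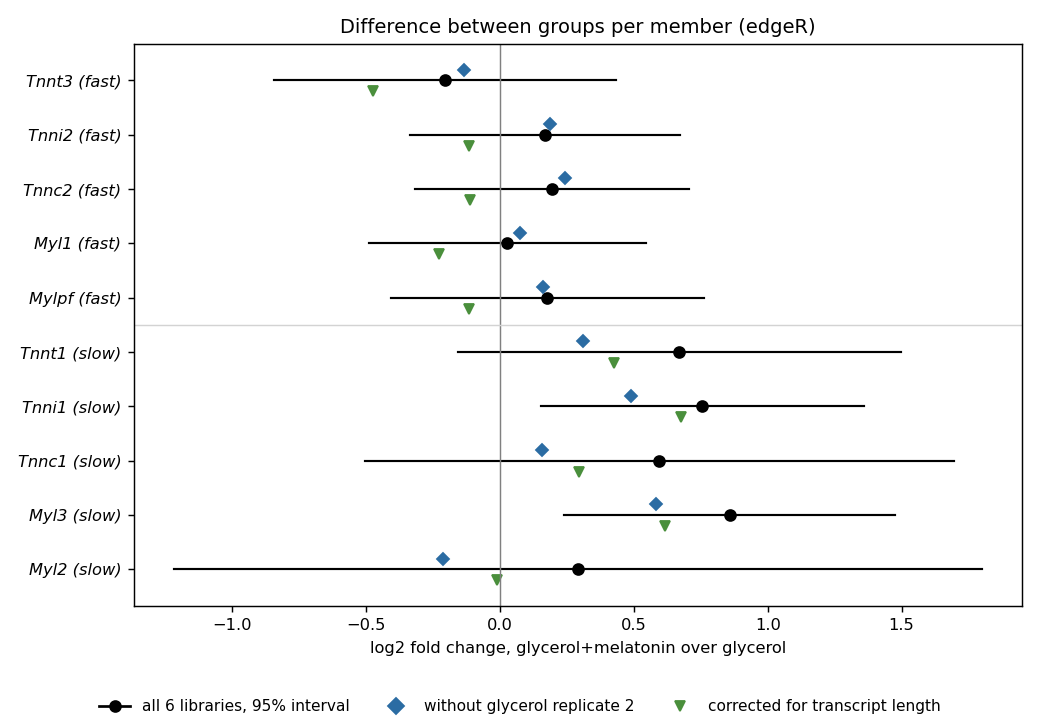
Log2 fold change of each member, glycerol+melatonin over glycerol, from edgeR: black circles and lines are the estimate and its 95% interval from all 6 libraries, blue diamonds leave out glycerol replicate 2, and green triangles correct for transcript length. Fast members (upper 5) lie within -0.21 to 0.19 before correction, and the intervals of Tnni1 and Myl3 alone do not cross 0.

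Each fast gene was set against its slow counterpart within the library, which removes any scaling between libraries. The pairs were Tnnt3 with Tnnt1, Tnni2 with Tnni1, Tnnc2 with Tnnc1, Myl1 with Myl3 and Mylpf with Myl2. For troponin T the difference of log2 CPM, fast minus slow, was 9.01, 8.56 and 8.44 in glycerol+melatonin and 9.28, 10.9 and 8.97 in glycerol. For troponin I it was 8.05, 7.58 and 7.87, against 8.18, 9.20 and 8.12 in glycerol, with no overlap. The essential light chains were the nearest pair, at 6.57, 6.52 and 6.39 in glycerol+melatonin and 6.89, 8.19 and 7.12 in glycerol, again with no overlap. Troponin C (9.15, 8.84 and 8.94, against 8.59, 11.2 and 9.24 in glycerol) and the regulatory light chains (9.77, 9.90 and 9.59, against 8.72, 12.4 and 10.3 in glycerol) overlapped, with glycerol replicate 1 lowest and replicate 2 highest.

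Averaged over the 5 pairs, the difference was 8.51, 8.28 and 8.25 in glycerol+melatonin (8.35 ± 0.143, SD, n = 3) and 8.33, 10.4 and 8.74 in glycerol (9.15 ± 1.09). The groups overlapped, because glycerol replicate 1 lay among the glycerol+melatonin values. Glycerol+melatonin minus glycerol was -0.81, less than the spread within the glycerol group, and it was -0.19 without glycerol replicate 2. No p is given for this score, as its members were chosen with results known. Per kb, the fast gene Myl1 was 99.0, 95.6 and 86.9 times Myl3 in glycerol+melatonin and 124, 304 and 144 times in glycerol. Tnnt1 made up 0.197%, 0.269% and 0.293% of its pair in glycerol+melatonin, against 0.164%, 0.0525% and 0.203% in glycerol.

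**Figure D3:**
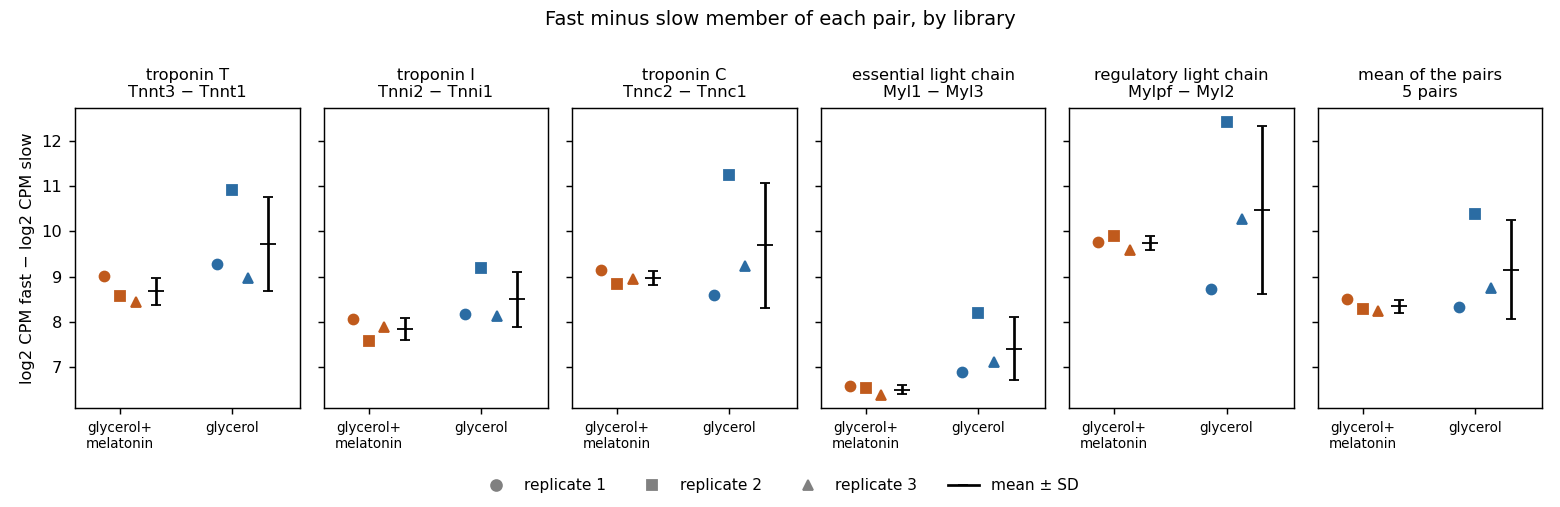
Log2 CPM of the fast gene minus log2 CPM of the slow gene for each pair and for their mean, by library, with glycerol+melatonin at the left (orange) and glycerol at the right (blue); marker shapes are replicates and black bars the mean ± SD (n = 3). The axis does not start at 0. Glycerol replicate 2 is the highest point of every panel (10.4 for the mean of the pairs).

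Glycerol replicate 2 was the lowest of the 6 libraries for 5 of 5 slow members, against 17.8% of all genes tested, and for 0 of 5 fast members. It was also the lowest for 9 of 13 genes of newly formed fibres and for 5 of 9 other troponins and light chains. Other lists showed less of this: it was the lowest for 5 of 18 genes of a slow fibre list, 3 of 9 myosin heavy chains and 2 of 18 genes common to all fibres. The heavy chain genes Myh7b and Myh6, both at low levels, were highest in glycerol replicate 2, at 2.49 and 2.88 CPM. They were listed as genes of muscle spindle and heart-type fibres. Tnni3 of the same list, also at a low level, was lowest in that library, at 0.668 CPM. The slow heavy chain gene Myh7 had 3.09 CPM in glycerol replicate 2, against 56.7 and 10.6 CPM in the other glycerol libraries. Its lowest value was 2.83 CPM, in glycerol+melatonin replicate 3. Glycerol replicate 2 had the highest sum of the fibro-adipogenic progenitor markers, 906 CPM, against 557 and 708 CPM in the other glycerol libraries. The part of these cells in the result was not tested. There Myl2 had 71 counts, Tnnc1 121, Tnnt1 397, Tnni1 400 and Myl3 1591. The slow members summed to 59.4 CPM in that library, against 160 and 139 CPM in the other glycerol libraries and 190 to 207 CPM in glycerol+melatonin. Among glycerol mice the coefficient of variation of the slow members ran from 35.1% (Tnni1) to 91.5% (Myl2), and among glycerol+melatonin mice from 5.13% (Tnnc1) to 14.4% (Myl2). For the fast members it ran from 7.52% to 23.3% in glycerol+melatonin and from 2.59% to 14.1% in glycerol.

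Tnnt1, Tnni1 and Myl3 were highest in a glycerol+melatonin library. Myl2 was highest in glycerol replicate 1, at 19.9 CPM, against 11.1 to 14.4 CPM in glycerol+melatonin. For Tnnc1 that library, at 15.2 CPM, was barely above the glycerol+melatonin libraries (13.6 to 14.9 CPM). Slow myosin heavy chain, Myh7, was also highest in glycerol replicate 1. It had 23.4, 15.6 and 2.83 CPM in glycerol+melatonin, against 56.7, 3.09 and 10.6 CPM in glycerol. It went apart from every slow member in glycerol+melatonin replicate 3, its lowest library, where Myl2 had 11.1 CPM. Its log2 fold change was -0.75 ± 0.98 (edgeR adjusted p = 0.702). Myl3 made up the largest part of the slow members' CPM per kb in each library, 55.1% to 58.4% in glycerol+melatonin and 47.5% to 63.6% in glycerol.

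**Figure D4:**
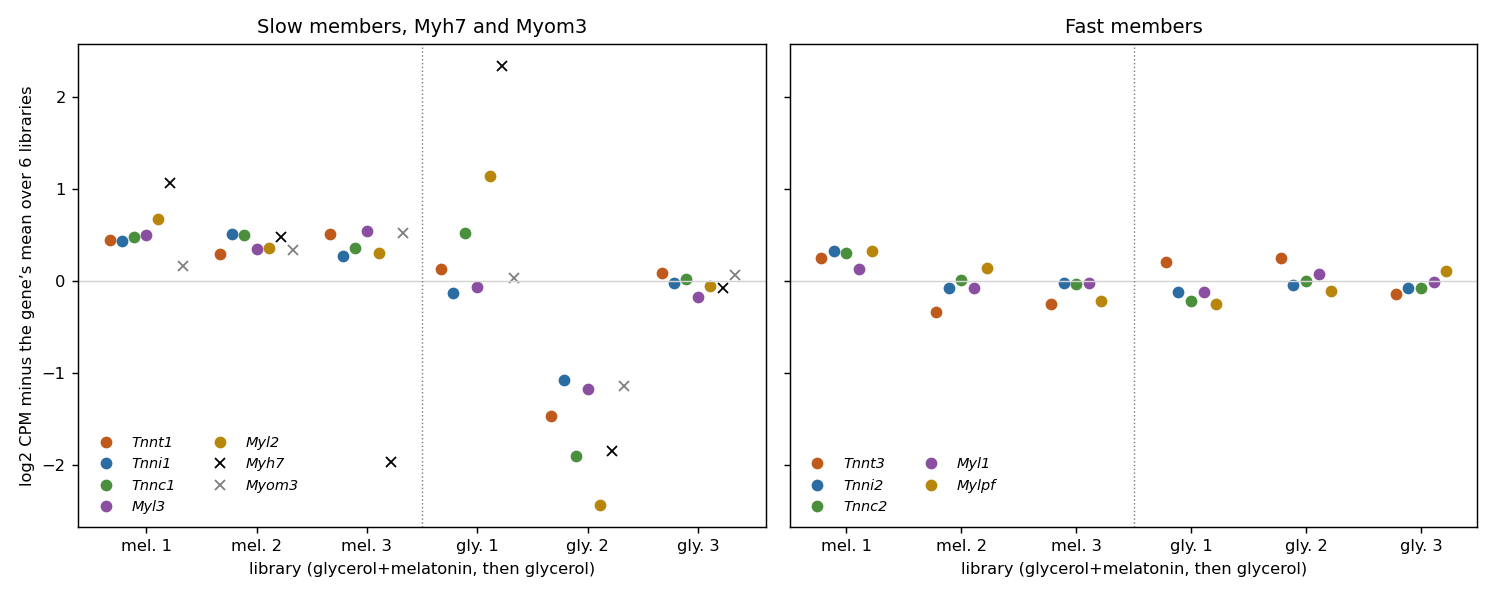
Log2 CPM minus the gene's own mean over the 6 libraries, for the slow members with Myh7 and Myom3 (left) and the fast members (right), with the glycerol+melatonin libraries left of the dotted line and the glycerol libraries right of it; circles are members and crosses the other genes. The slow members lie between -1.08 and -2.43 in glycerol replicate 2, while the fast members stay between -0.34 and 0.33 in all libraries.

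Genes with the most similar profile were named by the smallest root mean square difference of log2 CPM, centred per gene over the 6 libraries, among 8430 genes with a mean of at least 10 CPM. The 8 nearest to the mean of the slow members were Pigb (0.241), Map1s (0.245), Rab22a (0.251), Myom3 (0.276), Banf1 (0.297), Zfp568 (0.301), Slc39a9 (0.338) and Lgals4 (0.345). The slow members themselves lay at 0.129 (Tnnt1) to 0.481 (Myl2) from their mean. Myom3, which encodes an M-band protein of the sarcomere, had 66.2, 75.0 and 85.5 CPM in glycerol+melatonin, against 60.9, 27.0 and 62.2 CPM in glycerol (log2 fold change 0.60 ± 0.30, edgeR adjusted p = 0.306, and 0.30 without glycerol replicate 2). The 8 nearest to the fast mean were Aars2, Auh, Ppa2, BC031181, Flad1, Eif2d, Gucd1 and Sap30l, at 0.047 to 0.0561, and the fast members lay at 0.0571 (Tnni2) to 0.202 (Tnnt3) from it.

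Other members of the 2 families were also measured. Of 9 with a row, 0 passed by edgeR, DESeq2 or limma-voom. An unadjusted edgeR p under 0.05 was found for 2 of the 9, against 19.5% of all genes tested. Above 0 were 7 of the 9, against 51.7% of all genes, and the median log2 fold change was 0.40. Cardiac troponin T, Tnnt2, which immature skeletal fibres also express, had 23.7, 26.8 and 35.3 CPM in glycerol+melatonin, against 20.7, 15.9 and 23.5 CPM in glycerol (0.51 ± 0.21, edgeR adjusted p = 0.237). Embryonic and atrial essential light chain, Myl4, was at 0.42 ± 0.20 and overlapped. The light chain of smooth and non-muscle myosin, Myl6, had 188, 206 and 228 CPM, against 97.2, 108 and 172 CPM in glycerol (0.72 ± 0.23, edgeR adjusted p = 0.183). Myl6b (0.39 ± 0.20) and Myl12b (0.40 ± 0.19) were also separated between groups, while Myl12a (0.05 ± 0.16) and the smooth muscle chain Myl9 (-0.16 ± 0.23) were not. Myl12a and Myl12b share exon bases with another annotated gene on the same strand, so their counts are uncertain. On the opposite strand Myl12a also shares 207 exon bases with Myom1 (24391 to 44512 counts, against 15657 to 19555 for Myl12a). Cardiac troponin I, Tnni3, was near the bottom of the range, at 1.14 to 1.98 CPM and 0.668 to 1.47 CPM.

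The genes that act with the members lay on both sides of 0, and none of those in the lists passed by edgeR. DESeq2 called Neb, Mylk4 and Ppp1r12a among the genes named next, and limma-voom with sample weights called Mylk4 as well. The shares over all genes were 5.01% for DESeq2 and 1.22% for limma-voom with sample weights. Of 9 myosin heavy chains, 3 were above 0 (median -0.58): the fastest, Myh4, had 21930, 17108 and 12516 CPM in glycerol+melatonin, against 25196, 30794 and 20832 CPM in glycerol (-0.58 ± 0.31, edgeR adjusted p = 0.343). Myh2, the heavy chain of the fast oxidative fibres, had 696, 1094 and 1269 CPM, against 767, 464 and 606 CPM in glycerol (0.74 ± 0.28, edgeR adjusted p = 0.210). Of 12 other thin filament genes 1 was above 0 (median -0.28), with Neb, the giant ruler protein of the thin filament, lowest at -1.003 ± 0.291. Among 7 kinase and phosphatase genes that act on light chains, Mylk4, a light chain kinase family member, had 362, 301 and 202 CPM, against 991, 1111 and 473 CPM in glycerol (-1.57 ± 0.35, edgeR adjusted p = 0.132). Ppp1r12a, a targeting subunit of myosin phosphatase, was at 0.78 ± 0.23.

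Of 25 regulators of fibre type, 5 were above 0 (median -0.38) and 0 passed by edgeR, while DESeq2 called Mef2c, Maf and Mafa. Over all genes DESeq2 called 5.01% of those given an adjusted p, the share to set beside its calls in each list here. Mef2c, a muscle transcription factor, had 289, 280 and 206 CPM in glycerol+melatonin, against 160, 127 and 73.9 CPM in glycerol (1.10 ± 0.28, edgeR adjusted p = 0.142). Mafa and Maf, transcription factor genes known in mice for their role in the fastest fibres, were at -1.48 ± 0.33 and -0.82 ± 0.21, in that order. In the slow fibre list (18 genes, 8 above 0, median -0.10), the calcium pump inhibitor gene Sln was at 1.42 ± 0.27 and the stretch-related Z-disc gene Csrp3 at 1.75 ± 0.355. Both were separated between groups, and both passed by DESeq2 and by limma-voom with sample weights but not by edgeR (adjusted p = 0.117 and 0.122). In that list 3 genes were separated and higher in glycerol+melatonin, and 3 were separated and lower. Of all genes tested, 13.6% were separated and higher and 12.5% separated and lower. In the fast fibre list 4 of 16 were above 0 (median -0.36), with 0 passing by edgeR. DESeq2 called 1 of them, the glycerol phosphate dehydrogenase gene Gpd1, at -0.95 ± 0.31 by edgeR and separated between groups. In the list of newly formed fibres 12 of 13 were above 0 (median 0.43), also with 0 passing by edgeR. DESeq2 called 2 of them, the myoblast fusion gene Mymx (0.99 ± 0.29 by edgeR) and the actin-binding repeat gene Xirp1 (0.80 ± 0.19), both separated between groups.

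The members share little sequence with each other. The longest stretch of bases shared by a fast and a slow transcript of a pair was 21 (Tnnc2 and Tnnc1). Runs of 50 bases that a member's longest transcript shares with any other annotated gene were absent for 8 of the 10. They made up 0.666% of Tnni1 and 23.4% of Myl1, where the partner is the pseudogene Mylf-ps on chromosome 12, which had at most 0.193% of the Myl1 count in a library. On the opposite strand, Tnnc2 shares 592 exon bases with Ube2c (1155 to 3751 counts, against 237963 to 371346 for Tnnc2), Myl3 shares 95 with Pth1r (187 to 399 counts) and Myl2 60 with Ccdc63. On GRCm38, Tnnt3 (142498836 to 142516009) and Tnni2 (142441808 to 142444410) are neighbours on chromosome 7, which also holds Mylpf (127208890 to 127214298) and Tnnt1 (4504570 to 4516382). Myl1 (66924295 to 66945404) and Tnni1 (135779434 to 135810989) lie on chromosome 1, Tnnc2 (164777161 to 164779967) on 2, Myl2 (122100951 to 122113472) on 5, Myl3 (110741861 to 110769798) on 9 and Tnnc1 (31208312 to 31211729) on 14.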

How the data were processed

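The values are raw counts that the authors deposited in 1 table, keyed by Ensembl gene. The submitters' processing notes name mm10 as the build and list DESeq2 1.12.4, StringTie 1.3.3b, HISAT2 2.0, Trimmomatic 0.36, FastQC 0.11.2 and bedtools 2.26.0, with no roles. Not given in the sources used here: which tool counted, on what annotation, and whether strand was used. Columns were matched to samples by treatment code and replicate number. Symbols, positions and the longest transcript of each gene were taken from GENCODE M21 (GRCm38, the assembly of mm10), and 16260 of 16289 genes had a symbol. The members and gene lists were chosen with earlier results of these data known.

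Glycerol+melatonin was compared with glycerol in R 4.3.3 by the quasi-likelihood test of edgeR 4.0.16, with TMM factors, the filterByExpr filter and no covariate, on all 6 libraries, with Benjamini-Hochberg adjustment over 16259 genes and a threshold of 0.05. The SE is the size of the log2 fold change over the square root of F. Log2 values used a prior count of 2. The text names the members and genes of fixed lists, and the 8 genes nearest to each profile. Alternatives were other scalings, filters, DESeq2 1.42.0, limma-voom (limma 3.58.1), a replicate block, corrections for transcript length and GC content (splines with 4 degrees of freedom) and leaving out each library. Fits were tested on simulated data. Counts of same-group libraries differed by more than sampling noise, with a chi-square of 66.6 to 182 per degree of freedom. The series' text calls them biological replicates.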

Additional observations from a re-analysis of the deposited data

How the results depend on the processing

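In every setting run, 0 of the 10 members passed, and 1 to 6 had an unadjusted p under 0.05. The 6 came with the fibre total as scale, where 3411 of 16259 genes had such a p, all 5 fast members were above 0 and the fast median was 0.473, beside 0.168 in the main test. The lowest adjusted p of a member was 0.0525 (DESeq2, Myl3), and among the edgeR and limma settings it ran from 0.0771 to 0.423. Of all genes, 12 passed in the main test, 752 by DESeq2, 199 by limma-voom with sample weights, 7 with a length correction and 9 with length and GC content, and 6 to 27 when single libraries were left out. No pairing of the mice by replicate number was seen (correlations of same-numbered deviations -0.0101, -0.0107 and -0.0492). Differently numbered libraries gave -0.13 to 0.131, and with 3 mice a group such correlations cannot exclude a pairing. With the replicate block 0 genes passed, with 2991 at an unadjusted p under 0.05, and also 0 with the block and the length correction, a setting chosen after seeing the data, with 2676. Fast minus slow stayed below 0 throughout, from -1.22 to -0.19 when single libraries were left out, the weakest without glycerol replicate 2, and from -0.85 to -0.80 in the other settings.

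Scaling by library size alone put the median log2 fold change of all genes at 0.229 and scaling by the total of 18 fibre genes at 0.361, beside 0.0161 in the main test. Relative to the median of all genes, the slow median was 0.635, 0.636 and 0.654 in these 3 settings. Tnnt1, Tnni1, Tnnc1 and Myl3 stayed above 0 in every setting. Signs changed, with no call involved, as follows. Under the length correction, with GC content and with the block, Tnni2 was at -0.12, -0.15 and -0.12, Tnnc2 at -0.11, -0.13 and -0.11, Myl1 at -0.23, -0.18 and -0.23, Mylpf at -0.12, -0.10 and -0.13, and Myl12a at -0.067, -0.041 and -0.073. Myl2 was at -0.0104 with the length correction, and ran from -0.21 (without glycerol replicate 2) to 1.26 (without glycerol replicate 1). Tnnt3 was at 0.12 with the fibre total as scale. Myl1 ran from -0.0343 to 0.0739 as libraries were left out, below 0 without replicate 1 of either group. Myl9 was at 0.0613 with library size alone and 0.23 with the fibre total, and ran from -0.311 to 0.0821 as libraries were left out, above 0 without glycerol replicate 2. Myl12a was at -0.00511 with sample weights and ran from -0.00209 to 0.142 as libraries were left out. Myh7 was at 0.0982 with sample weights and ran from -1.34 to 1.03, above 0 without glycerol replicate 1. The causes were not tested. Signs were compared for the members and for the other genes whose fold change is given, except Myl10, and no other sign changed among them. The low counts of Myl2 and Tnnc1 (71 and 121 in glycerol replicate 2) limit those genes, and 3 mice a group limit all values.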
